A study of Mus musculus with 18 samples.

Results

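The 10 integrin subunit genes Itga1, Itga5, Itga7, Itga8, Itgav, Itgam, Itgax, Itgb1, Itgb2 and Itgb5 were examined in wire-injured mouse carotid arteries. They were chosen by symbol, as chains used by muscle, by many mural cell types or by leukocytes, and all 10 were found among the 35655 genes of the count table. Expression was measured in 18 libraries of male WT C57/BL6 mice, with 4 libraries labelled pre-injury (day 0), 4 at day 7, 3 at day 14, 4 at day 21 and 3 at day 28. All animals were wild type, were fed chow and were young adults at surgery, in which a wire was passed through the left carotid to strip and stretch the vessel wall, and the study used the right carotid as control. Whether the day 0 libraries came from such a contralateral vessel was not stated in the labels. In 3 cases the labels gave a day 0 library and a day 21 library the same animal number. By the study's methods, total RNA came from up to 70 laser-dissected sections per collection that held the outer elastic lamina and the neointima. What was cut from the vessels of day 0, before any injury, was not described separately. The dissected tissue may therefore differ between day 0 and the later days. The p-values measure the spread between these libraries, which may be in part technical, because the study described the neointimal material as pooled.

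Integrins are receptors for extracellular matrix and for other cells, and each is a pair of an alpha and a beta chain. Itgb1 is the shared beta chain of the collagen receptor with Itga1, the laminin receptor with Itga7, and the receptors with Itga5, Itga8 and Itgav that bind the RGD motif of fibronectin and related proteins. Itgb5 pairs with Itgav. Itgb2 (CD18) pairs with Itgam (CD11b) and Itgax (CD11c) in leukocytes, where these receptors bind ICAM1, fibrinogen and complement fragments. In arteries, Itga1, Itga7 and Itga8 are known as chains of differentiated smooth muscle, and Itga5 and Itgav are also found on fibroblasts and endothelial cells.

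In the GENCODE annotation of GRCm39, the collagen and laminin receptor chains lie at chr13:115089632-115238677 on the minus strand (Itga1) and chr10:128769621-128794169 on the plus strand (Itga7). The chains of the RGD receptors lie at chr2:12110900-12307214 on the minus strand (Itga8), chr15:103252713-103275270 on the minus strand (Itga5) and chr2:83554403-83637260 on the plus strand (Itgav). All beta chains are on plus strands, at chr8:129411876-129460618 (Itgb1), chr10:77366086-77401542 (Itgb2) and chr16:33649988-33771137 (Itgb5). Itgam at chr7:127661808-127717753 and Itgax at chr7:127728668-127749829 share the plus strand, and 10914 bases separate the end of Itgam from the start of Itgax. The 250 bases before the annotated start are shown for 5 genes in 2 groups: the 3 leukocyte chains, whose levels moved together, and the muscle chains Itga7 and Itga8, which moved together and opposite to them. Their windows are chr7:127661558-127661807, chr7:127728418-127728667, chr10:77365836-77366085 and chr10:128769371-128769620 on the plus strand and chr2:12307215-12307464 on the minus strand. They are printed 5′ to 3′ in the direction of the gene, and capitals mark the letters GAGGAA or their reverse complement TTCCTC, the core bound by the myeloid factor PU.1.
Itgam: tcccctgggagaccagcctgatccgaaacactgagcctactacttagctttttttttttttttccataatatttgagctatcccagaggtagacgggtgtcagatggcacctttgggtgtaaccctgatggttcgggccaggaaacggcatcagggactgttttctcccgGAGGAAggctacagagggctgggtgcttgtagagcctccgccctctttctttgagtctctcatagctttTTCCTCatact
Itgax: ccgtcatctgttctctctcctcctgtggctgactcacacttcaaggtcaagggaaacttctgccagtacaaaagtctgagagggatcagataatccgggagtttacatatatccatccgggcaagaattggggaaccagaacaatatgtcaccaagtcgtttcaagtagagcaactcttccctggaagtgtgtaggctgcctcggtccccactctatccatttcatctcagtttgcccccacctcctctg
Itgb2: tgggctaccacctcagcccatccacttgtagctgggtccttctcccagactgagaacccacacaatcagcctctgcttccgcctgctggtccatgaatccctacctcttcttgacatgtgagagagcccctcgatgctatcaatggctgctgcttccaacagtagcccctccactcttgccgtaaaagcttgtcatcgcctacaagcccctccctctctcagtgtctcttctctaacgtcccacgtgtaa
Itga7: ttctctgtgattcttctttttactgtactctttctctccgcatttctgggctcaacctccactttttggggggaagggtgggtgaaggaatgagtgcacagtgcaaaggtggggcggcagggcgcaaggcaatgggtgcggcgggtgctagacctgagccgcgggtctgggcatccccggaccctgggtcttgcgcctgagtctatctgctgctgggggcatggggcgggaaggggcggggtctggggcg
Itga8: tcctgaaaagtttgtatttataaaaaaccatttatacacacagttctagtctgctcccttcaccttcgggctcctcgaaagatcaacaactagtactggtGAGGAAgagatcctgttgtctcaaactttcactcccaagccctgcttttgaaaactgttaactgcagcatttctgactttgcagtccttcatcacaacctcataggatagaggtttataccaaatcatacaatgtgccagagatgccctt
The core was present at 2 positions before Itgam, which begin 80 and 11 bases before the start, and at 1 position before Itga8, 150 bases before it. Itga5, not printed here, held it at 1 position, 155 bases before the start, and the windows of the 7 remaining members held none. Of 21751 promoters of protein-coding genes with windows of the same length, 22.9% held the core on either strand. No window of the 10 members held the CArG box, the site of serum response factor, which was present in 1.4% of all windows. These matches describe letters and were not tests of binding.

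The libraries held 440675 to 878310 deduplicated counts, and the median of a day was highest before injury (742503.5) and lowest on day 7 (549633.0). Levels are given as CPM, which sets the counts of each library to a common total after TMM scaling that evens out differences in composition. How evenly 3′ end counting captured different genes was not examined, so the levels of different genes are not ranked against each other. Shares and ratios between genes are given below to follow their change over the days. The label carotid artery was checked against 12 contractile smooth muscle markers, all of which were detected on every day. Their summed level was 41244.3 to 46766.9 CPM on day 0, 1944.3 to 8441.8 on day 7, 9141.4 to 28690.3 on day 14, 10339.1 to 26030.4 on day 21 and 26689.6 to 34753.7 on day 28. The summed level of 16 macrophage markers was 149 to 590 CPM on day 0, when Mpeg1 was at 0, and 5534.2 to 8104.4 on day 7. It was 1546.8 to 3591.3 CPM on day 14, 2201.1 to 3957.6 on day 21 and 949 to 1329.4 on day 28. The 10 fibroblast markers summed to 3133 to 4436.8 CPM on day 0 and 927 to 2229.5 on day 7, and the 10 endothelial markers to 786 to 1334 CPM and 832 to 2577.5 CPM. The 9 skeletal muscle and nerve markers summed to 13.1 to 33.5 CPM on day 0 and 14.5 to 119 on day 7. They summed to 25.6 to 356 CPM on day 14, 23 to 364 on day 21 and 26.5 to 79.9 on day 28. Their part in the course of Itga7, a chain of muscle, was not tested. In these bulk libraries, fewer cells of a type and less RNA per cell cannot be told apart.

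All 10 members passed the filter on low counts. Itgam, Itgax and Itgb2 passed it only through days after injury, since they had 0, 0 and 3 counts in all on day 0. They are the 3 members that rose on days 7, 14 and 21, so the filter favoured these rises over falls. The same holds for other genes below that had few counts on day 0. On day 7, 3 of the 10 members rose and 5 fell against day 0 (adjusted p below 0.05, edgeR quasi-likelihood test with Benjamini-Hochberg adjustment over 10312 genes), where 11.3% of all tested genes rose and 8.53% fell. On day 14, 3 rose and 2 fell, beside 4.8% and 1.42% of all genes. On day 21, 3 rose and 1 fell, beside 5.92% and 2.93%. On day 28, 1 fell and none rose by edgeR, beside 0.369% and 0.97% of all genes. Of the members higher on day 28, 2 had an unadjusted p below 0.05, and DESeq2 called 1 and limma 0. The median log2 change of the members was -0.88, -0.32, -0.25 and -0.29 on days 7, 14, 21 and 28, beside 0.07, 0.05, 0.07 and -0.01 over all tested genes. With the leukocyte genes that had no count on day 0 at their lower bounds, these medians were -0.88, -0.32, -0.24 and -0.29. The 4 comparisons share the day 0 libraries.

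The later days were also set against day 7, to describe what followed the early phase. On day 14, 1 member was higher than on day 7 and none lower, beside 1.33% and 0.33% of all tested genes. On day 21, 3 were higher and none lower, beside 4.03% and 3.23%. In each of these comparisons, 2 members were lower at an unadjusted p below 0.05, and neither DESeq2 nor limma called any lower. On day 28, 2 members were higher and 3 lower, beside 6.4% and 8.05% of all genes. The members called higher after day 7 were Itga7, Itga8 and Itgb5, and those called lower on day 28 were the 3 leukocyte chains.

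**Figure D1:**
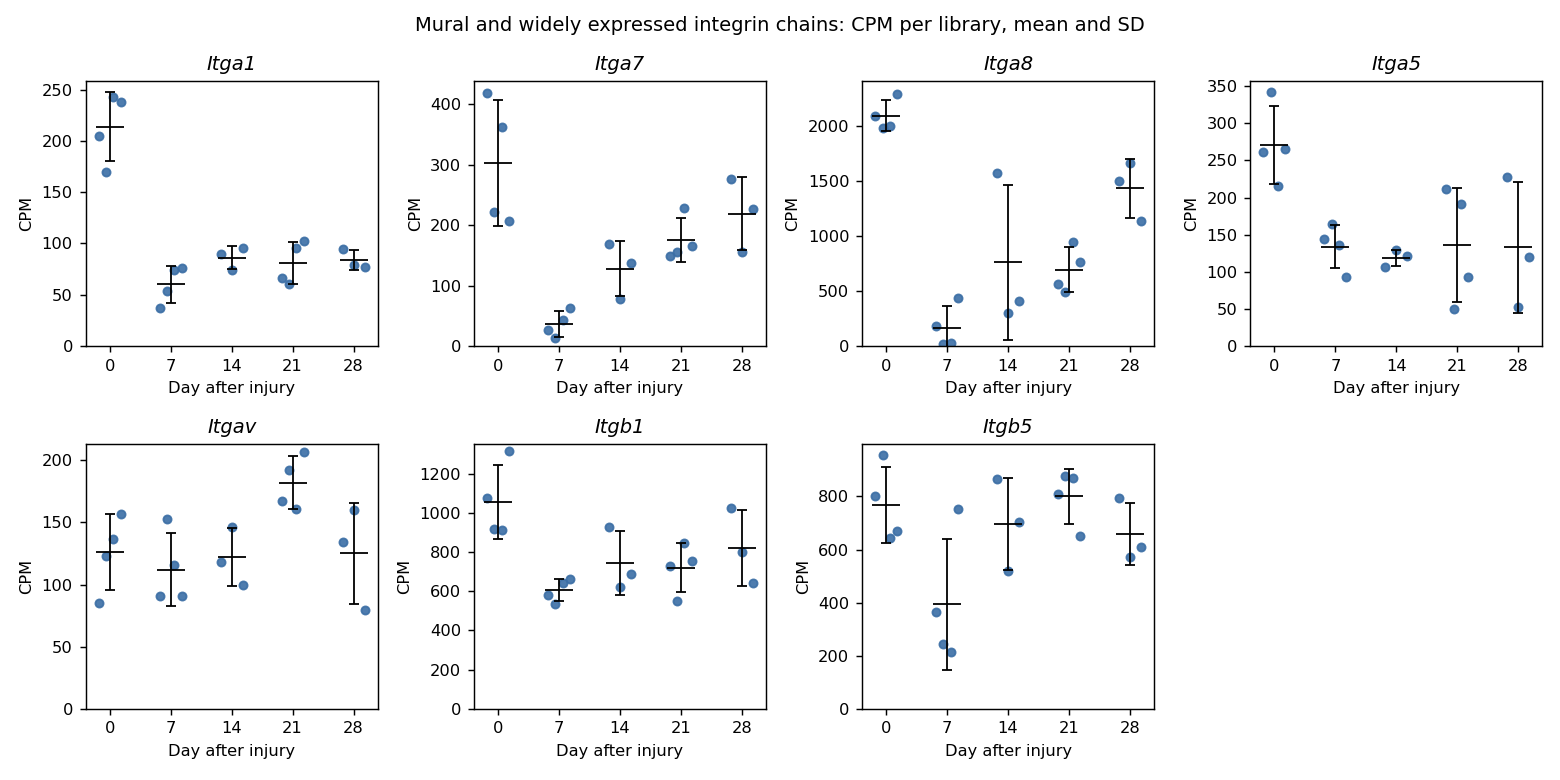
CPM of 7 integrin genes (vertical axes, each from 0) in each library (points, 18 libraries) by day after injury (horizontal axes), with the mean and SD of each day in black. Itga1, Itga7 and Itga8 were lowest on day 7, Itga8 climbed to 1430.5 ± 271 CPM on day 28, and the Itgav points of most days overlap.

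Itga1, the collagen-binding alpha chain of smooth muscle, fell on day 7 and stayed below the day 0 range on all later days. Its level was 205, 170, 243 and 238 CPM in day 0 replicates 1 to 4. On day 7 it was 37.4, 53.9, 73.8 and 75.9 CPM, a log2 change of -1.82 ± 0.27 (SE; n = 4 against 4 libraries; edgeR adjusted p = 3.1e-05). The highest day 7 library was thus below the lowest day 0 library. Replicates 1 to 3 held 89.6, 74.1 and 95.2 CPM on day 14 (log2 change -1.30 ± 0.29, edgeR adjusted p = 0.00659). On day 21 the values were 66.2, 60.5, 95.4 and 102 CPM (-1.40 ± 0.27, edgeR adjusted p = 0.00163), and on day 28 they were 94.8, 79.4 and 76.7 CPM (-1.35 ± 0.29, edgeR adjusted p = 0.022). No later day overlapped with day 0. Against day 7, the later days differed by 0.42 to 0.52 on the log2 scale, and none of these differences passed the test (edgeR adjusted p from 0.32 to 0.604).

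The Itga1 calls of days 14 and 28 were the less firm ones. With the animal shared by day 0 and day 21 libraries as a block, the edgeR adjusted p was 0.112 on day 14 and 0.237 on day 28, and both calls were lost. Here and below, this block makes the day 0 level lean on day 0 replicate 1, the only day 0 library of an animal without a day 21 library. Day 14 also missed the threshold without day 14 replicate 2 (adjusted p = 0.0691). Day 28 missed it without day 0 replicate 3 or 4 (0.0581 and 0.0568) and without day 28 replicate 2 or 3 (0.0725 and 0.0804), and limma on the deposited normalised counts did not call it (0.0602). In the annotation the last exon of Itga1 overlaps Mocs2 on the opposite strand, and it is not stated in the sources used here whether counting used the strand.

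Itga7, the laminin-binding chain of muscle, showed a fall and a return. In day 0 replicates 1 to 4 it stood at 418, 222, 362 and 207 CPM, and on day 7 at 26.7, 12.6, 43.9 and 63 CPM. This 8.2-fold decrease (log2 change -3.04 ± 0.38, edgeR adjusted p = 2.8e-06) was called under all 25 alternatives, and the days did not overlap. The 3 libraries of day 14 held 168, 77.6 and 137 CPM, which was above day 7 (log2 change 1.79 ± 0.39, edgeR adjusted p = 0.0166) and below day 0 (-1.24 ± 0.37, adjusted p = 0.0471). On day 21 the level was 149, 155, 229 and 165 CPM, or 2.24 ± 0.37 above day 7 on the log2 scale (edgeR adjusted p = 0.00053). On day 28 it was 276, 155 and 227 CPM, or 2.57 ± 0.39 above day 7 (adjusted p = 0.000114). Days 21 and 28 overlapped with day 0, at log2 differences of -0.79 ± 0.34 and -0.46 ± 0.36 (adjusted p = 0.156 and 0.588).

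The day 14 values of Itga7 depended on single libraries. The call against day 0 was lost with the animal block (edgeR adjusted p = 0.114) and without day 0 replicate 1 or 3 (0.13 and 0.114), day 7 replicate 3 (0.0501) or day 14 replicate 2 or 3 (0.31 and 0.115). It was also lost without day 21 replicate 1, 2 or 4 (0.056, 0.0523 and 0.052). The call against day 7 was lost when only these days were fitted (0.0902) and without day 7 replicate 1 or 2 (0.0546 and 0.0723) or day 14 replicate 1 or 3 (0.143 and 0.0531). The last exon of Itga7 overlaps Tmt1b on the opposite strand.

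Itga8, the RGD-binding chain that recognises nephronectin, had the largest decrease on day 7 among the 7 chains with counts in every day 0 library. Its level was 2085.9, 1980.9, 1997.3 and 2288.6 CPM in day 0 replicates 1 to 4, the tightest day 0 group of the members by its spread relative to the mean. On day 7 replicates 1 to 4 held 185, 16.2, 31.9 and 439 CPM. The mean was 12.3-fold lower (log2 change -3.62 ± 0.62, edgeR adjusted p = 0.000143), and all 25 alternatives called it. The 4 day 7 libraries differed widely among themselves, and the summed smooth muscle markers had the same order, at 4359, 1944.3, 2360.3 and 8441.8 CPM. On day 14 the level was 1567.6, 304 and 407 CPM, with replicate 1 far above the others in Itga8 and also in the smooth muscle sum (28690.3 against 9141.4 and 10243.6 CPM). On day 21 it was 564, 494, 947 and 766 CPM, and on day 28 it was 1496.5, 1662.1 and 1132.9 CPM.

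No later day of Itga8 overlapped with day 0, yet none passed the test. The log2 change was -1.46 ± 0.62 on day 14, -1.59 ± 0.57 on day 21 and -0.55 ± 0.60 on day 28 (edgeR adjusted p = 0.207, 0.081 and 0.725). Without day 14 replicate 1 the day 14 change was -2.58 (adjusted p = 0.0223), and the fit of days 14 and 0 alone also called it (-1.48, 0.0435). The day 21 change passed without day 7 replicate 2 (0.0371), day 7 replicate 4 (0.0273) or day 14 replicate 1 (0.0483), and in the fit of days 21 and 0 alone (3.2e-05). With no filter on low counts both were called (9.1e-06 and 2.1e-08), at log2 changes of -1.44 and -1.58. These changes are close to those of the main fit, so the lower p does not reflect a larger change. Compared with day 7, Itga8 was 3.08 ± 0.63 higher on day 28 on the log2 scale (edgeR adjusted p = 0.00169, called under all 25 alternatives). It was 2.03 ± 0.59 higher on day 21 (adjusted p = 0.0332), a call lost with the animal block (0.276), with DESeq2 (0.0559) and in the fit of these days alone (0.0623). That call was also lost without day 7 replicate 1, 2 or 3 (0.0737, 0.0766 and 0.0917) or day 21 replicate 1, 3 or 4 (0.0538, 0.0896 and 0.0697). On day 14 the difference from day 7 was 2.16 ± 0.62 (adjusted p = 0.0787), from 1.08 without day 14 replicate 1 (0.954) to 3.29 without day 7 replicate 4 (0.00185), and 2.54 without day 14 replicate 2 (0.0343).

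Itga5, the fibronectin receptor alpha chain, had lower means on all later days, and none passed the edgeR test over all 18 libraries. Day 0 replicates 1 to 4 held 261, 342, 216 and 266 CPM, and day 7 replicates held 144, 164, 136 and 93.6 CPM. These ranges did not overlap, and the log2 difference was -1.02 ± 0.37 (edgeR adjusted p = 0.0558). This value lay close to the threshold, and over 25 alternatives the adjusted p ranged from 0.00836 with only these days to 0.542 with the animal block. It passed under 10 of them, among which were DESeq2 (0.0477) and the fits without day 14 replicate 1 (0.0479), without day 21 replicate 2, 3 or 4 (0.0308, 0.0452 and 0.0466) and without day 28 replicate 1 or 2 (0.0351 and 0.026). Day 14 libraries held 107, 129 and 121 CPM, a difference of -1.19 ± 0.41 (adjusted p = 0.0941). It passed in the fit of these days alone (0.00906), with no filter on low counts (0.0113) and without day 28 replicate 2 (0.0478). The spread widened on day 21, with 211, 50.5, 191 and 93.1 CPM, and on day 28, with 227, 52.9 and 120 CPM. The day 21 difference from day 0 was -0.98 ± 0.37 (adjusted p = 0.104, and 0.0237 with no filter on low counts). Without day 28 replicate 1 the day 28 difference was -1.65 (adjusted p = 0.0349), against -1.02 ± 0.41 with it (0.226).

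Itgav, which pairs with several beta chains including Itgb5, had the smallest of the members' largest log2 differences from day 0. Its lowest and highest values were 84.9 and 157 CPM on day 0, 90.4 and 153 on day 7, 100 and 146 on day 14, and 79.9 and 160 on day 28. On day 21 all 4 libraries, at 167, 192, 161 and 207 CPM, were above the day 0 and day 7 ranges. The log2 difference from day 0 was 0.53 ± 0.27 (edgeR adjusted p = 0.253) and that from day 7 was 0.69 ± 0.27 (adjusted p = 0.135), so neither passed the test. On days 7, 14 and 28 the difference from day 0 was -0.16 ± 0.27, -0.05 ± 0.29 and -0.01 ± 0.29, and these signs turned with single libraries or settings.

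**Figure D2:**
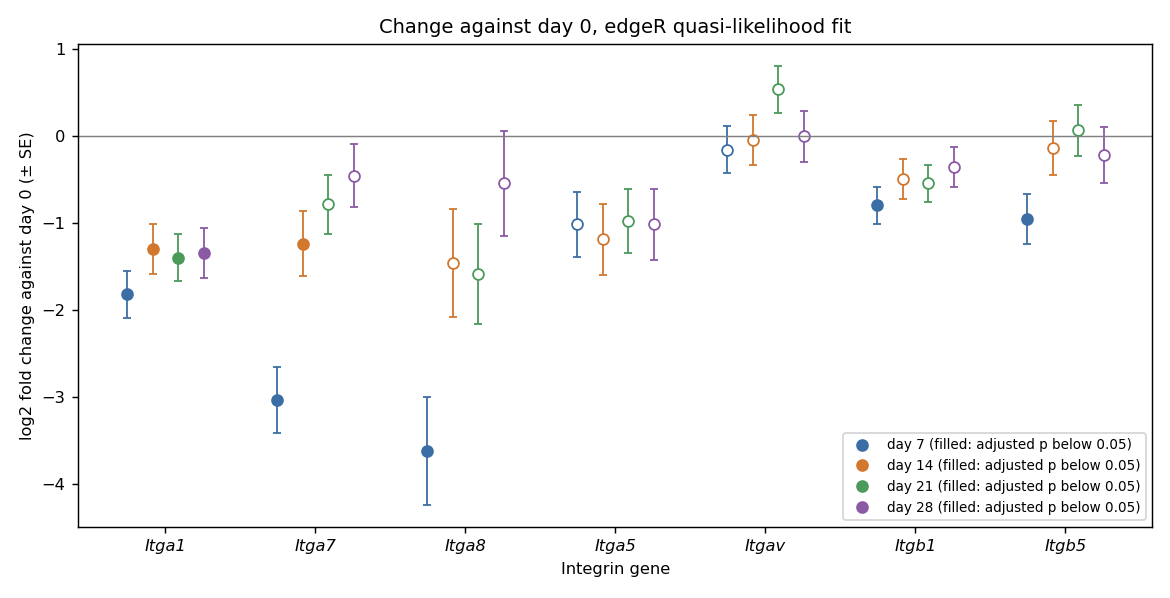
Log2 fold change against day 0 with its standard error (vertical axis) for 7 integrin genes (horizontal axis) on days 7, 14, 21 and 28 (colours), from the edgeR fit over 18 libraries. Filled points passed the adjusted threshold of 0.05, as Itga1 did on every day, and the open points of Itgav lie around 0.

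**Figure D3:**
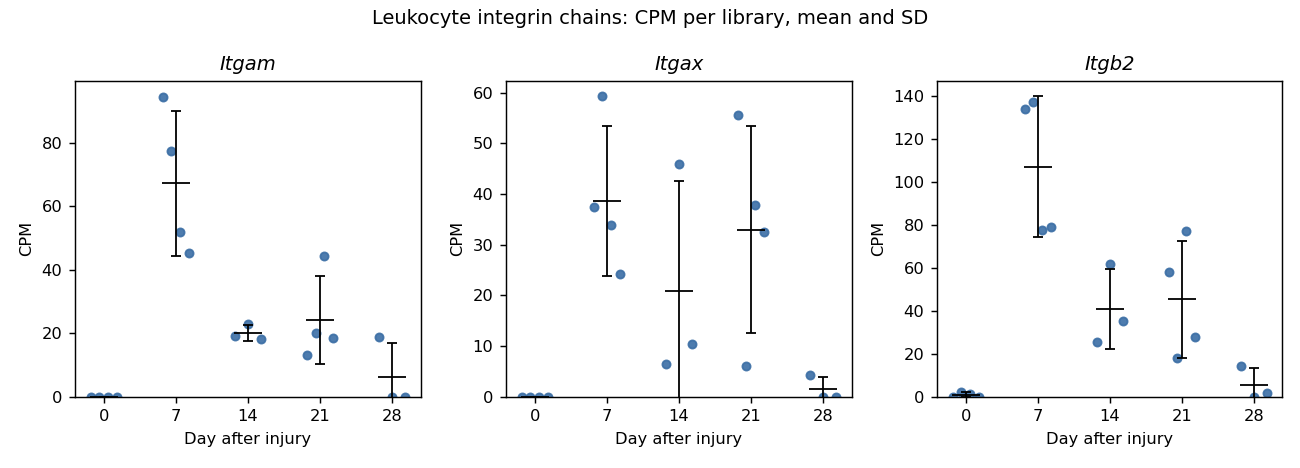
CPM of the 3 leukocyte integrin genes (vertical axes, each from 0) in each library (points) by day after injury, with the mean and SD of each day in black, bars cut at 0. The genes were at or near 0 on day 0, highest on average on day 7, and on day 28 nearly all counts came from replicate 1.

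Itgam, the alpha chain of complement receptor 3, had no count in any of the 4 day 0 libraries and was counted in all libraries of days 7, 14 and 21. Day 7 replicates 1 to 4 held 53, 43, 26 and 28 counts, or 94.4, 77.3, 51.8 and 45.2 CPM. Set against 3 counts per day 0 library (4.12 CPM), the mean of day 7 was at least 16.3-fold higher (edgeR adjusted p = 2.9e-05). The counts were 12, 13 and 14 on day 14, or 19.2, 22.9 and 18.3 CPM, at least 4.89-fold higher than day 0 (adjusted p = 0.00268). They were 11, 10, 27 and 8 on day 21, or 13, 20.2, 44.4 and 18.6 CPM, at least 5.84-fold higher (adjusted p = 0.00125). All 13 counts of day 28 were in replicate 1 (18.7 CPM), and replicates 2 and 3 had 0. The day 28 difference from day 0 did not pass the test (edgeR adjusted p = 0.0909), although DESeq2 (0.0172) and the fit with no filter on low counts (0.00732) called it.

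Relative to day 7, Itgam was lower in all libraries of days 14, 21 and 28. The log2 differences were -1.73 ± 0.77 and -1.47 ± 0.69 on days 14 and 21 (edgeR adjusted p = 0.399 and 0.236) and -3.34 ± 0.86 on day 28 (adjusted p = 0.0116). The fit of days 21 and 7 alone called the day 21 difference (0.0329). The last exon of Itgam overlaps Gm49368 on the same strand in the annotation, so reads there could be shared between both.

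Itgax, the alpha chain of complement receptor 4, was likewise at 0 counts in every day 0 library. Day 7 replicates 1 to 4 held 21, 33, 17 and 15 counts, or 37.4, 59.3, 33.9 and 24.2 CPM, at least 9.4-fold higher than day 0 (edgeR adjusted p = 0.000143). On day 14 the counts of 4, 26 and 8 spread from 6.4 to 45.9 CPM, at least 5.08-fold higher on average (adjusted p = 0.00281). The day 21 counts of 47, 3, 23 and 14 spread from 6.05 to 55.6 CPM, at least 8.02-fold higher (adjusted p = 0.000676). Days 7, 14 and 21 overlapped with each other in Itgax, unlike in Itgam, where day 7 was above days 14 and 21. Whether the courses of both genes differ was not tested. On day 28 only replicate 1 had counts, 3 in all, and no fold against day 0 is given. Against day 7 the day 28 rate was 0.0405 of it (95% exact counting interval 0.0082 to 0.123, counting error only; edgeR adjusted p = 0.0067).

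Itgb2, the beta chain of both, followed them. On day 0 only replicates 2 and 3 had counts (2 and 1). Day 7 replicates 1 to 4 held 75, 76, 39 and 49 counts, or 134, 137, 77.7 and 79.1 CPM. The ratio of rates was 105 (95% exact counting interval 35.4 to 511; edgeR adjusted p = 2.8e-06). On day 14 the level was 25.6, 61.8 and 35.2 CPM (ratio 39.0, interval 12.9 to 193; adjusted p = 0.000433), and on day 21 it was 58, 18.2, 77.3 and 27.9 CPM (ratio 48.2, interval 16.1 to 237; adjusted p = 0.000194). Day 28 replicates held 10, 0 and 1 counts, with a ratio to day 0 of 5.6 (interval 1.48 to 31.2; edgeR adjusted p = 0.303) that came from replicate 1. The log2 difference of day 28 from day 7 was -4.22 ± 0.74 (adjusted p = 0.000449), and all 3 libraries were below all 4 of day 7. The days 14 and 21 were below day 7 in every library and did not pass the test (-1.39 ± 0.60 and -1.21 ± 0.54; adjusted p = 0.367 and 0.207).

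Macrophage markers moved with the leukocyte chains, and their part in these results was not tested. Of the 15 macrophage markers that could be tested, 15 rose on days 7, 14 and 21 and 4 rose on day 28. The 3 leukocyte chains together amounted to 0 to 1.6% of the summed macrophage markers on day 0, 2.24 to 4.79% on day 7, 2.01 to 3.64% on day 14 and 1.12 to 4.85% on day 21. On day 28 they amounted to 3.93%, 0% and 0.12% in replicates 1 to 3, where the marker sums were 949, 982 and 1329.4 CPM. Replicate 1 held all day 28 counts of these chains except 1 count of Itgb2 in replicate 3. Of 10 neutrophil markers, 4 could be tested and all 4 rose on day 7. The 10 summed to 26.8 to 101 CPM on day 0 and 231 to 798 on day 7. Ly6g, Camp and Elane were at 0 on both days, and Ngp was counted on day 0 and at 0 on day 7. Markers with no count on day 0 could be tested only where later days lifted them over the filter. The number that rose was thus in part set by the filter. The dendritic cell markers summed to 37.9 to 122 CPM and the lymphocyte markers to 45.8 to 64.6 CPM on day 7, beside 2.98 to 17.9 and 1.31 to 16.4 CPM on day 0.

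Itgb1, the common partner of Itga1, Itga5, Itga7, Itga8 and Itgav, fell on day 7. It was 1073.5, 918, 914 and 1313.6 CPM in day 0 replicates 1 to 4 and 580, 537, 642 and 664 CPM on day 7, with no overlap. The decrease was 1.74-fold (log2 change -0.80 ± 0.21, edgeR adjusted p = 0.00783), and with the animal block the change was -0.63 and no longer called (adjusted p = 0.154). The level ranged from 619 to 928 CPM on day 14, from 549 to 847 on day 21 and from 641 to 1024 on day 28. The differences of these days from day 0 were -0.50 ± 0.23, -0.55 ± 0.21 and -0.36 ± 0.23 (adjusted p = 0.249, 0.108 and 0.484). On day 21, where the ranges did not overlap, DESeq2 called the difference (0.0481).

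Itgb5, the vitronectin receptor beta chain, fell on day 7, and its later days overlapped with day 0. Day 0 replicates 1 to 4 held 800, 958, 644 and 668 CPM, and day 7 replicates held 365, 243, 213 and 752 CPM (log2 change -0.96 ± 0.29, edgeR adjusted p = 0.0211). Day 7 replicate 4 lay within the day 0 range, and the same library had the highest Itga7 and Itga8 levels and the highest smooth muscle sum of its day. The call was lost with the animal block (0.0977), in the fit of these days alone (0.0585) and without day 0 replicate 2 (0.0582) or day 7 replicate 2 or 3 (0.0877 and 0.0862). The level was 521 to 864 CPM on day 14, 651 to 876 on day 21 and 572 to 793 on day 28. Day 21 was 1.02 ± 0.30 above day 7 (adjusted p = 0.0326), which the animal block took to 0.143 and the fit of these days alone to 0.0636. This call was also lost without day 7 replicate 1, 2 or 3 (0.0843, 0.124 and 0.118) or day 21 replicate 1, 2 or 3 (0.0703, 0.0667 and 0.0711). Days 14 and 28 differed from day 7 by 0.82 ± 0.31 and 0.74 ± 0.31 (0.262 and 0.12), and by 1.37 and 1.31 without day 7 replicate 4 (0.00249 and 0.00101).

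The balance of the beta chains was also taken within each library, where no scaling between libraries enters. The log2 ratio of Itgb2 to Itgb1 counts (pseudocount 0.5) was -9.60 ± 1.33 (mean and SD) before injury and -2.54 ± 0.58 on day 7. It was -4.24 ± 0.91 and -4.15 ± 0.72 on days 14 and 21, and -8.02 ± 1.92 on day 28. On day 28 the libraries held -6.09, -9.92 and -8.06, beside a day 0 range of -10.97 to -8.26. Itgb2 had 0, 2, 1 and 0 counts in day 0 replicates 1 to 4 and 10, 0 and 1 on day 28. Except for day 28 replicate 1, these values were thus set largely by the pseudocount, and their order is not read. The log2 ratio of Itga5 to Itga7, 2 alpha chains of Itgb1, was -0.11 ± 0.70 on day 0 and 2.04 ± 1.28 on day 7, with values of 2.39, 3.61, 1.61 and 0.57 in day 7 replicates 1 to 4. The last of these lay within the day 0 range of -0.74 to 0.62. It was -0.03 ± 0.70 on day 14, -0.55 ± 0.89 on day 21 and -0.91 ± 0.63 on day 28. These ratios are descriptions and were not tested.

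**Figure D4:**
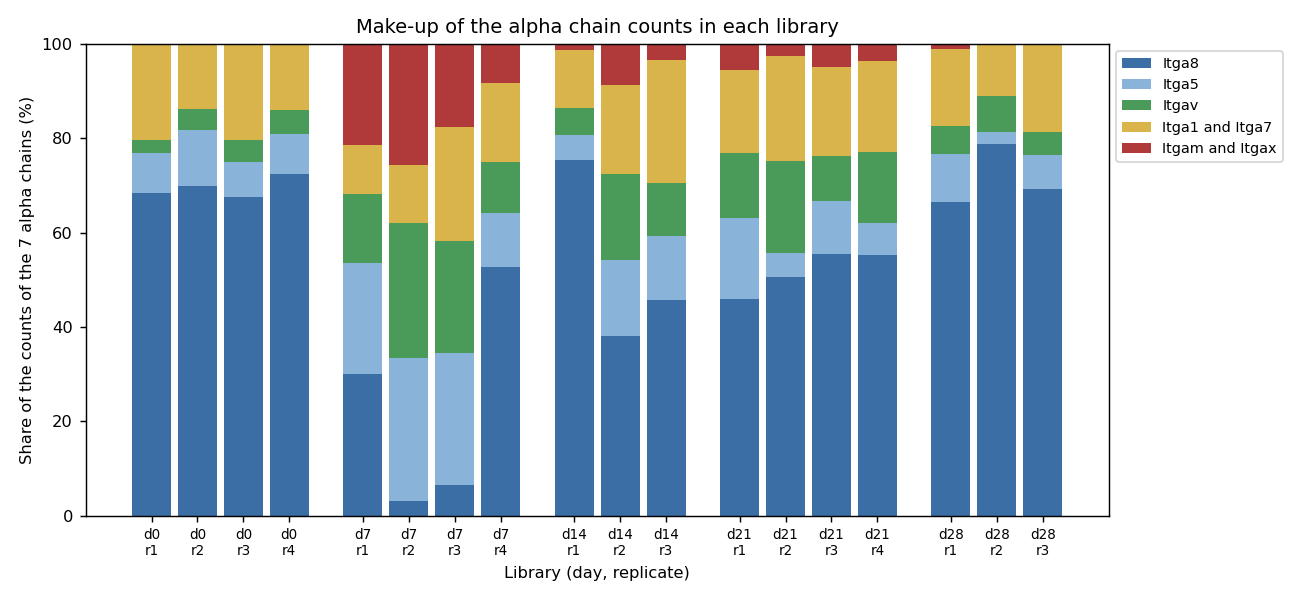
Share of the counts of the 7 alpha chain genes (vertical axis, percent) in each of 18 libraries (bars, by day d and replicate r), stacked by chain. Itga8 makes up 67.6 to 72.5% on day 0 and 3.02 to 52.8% on day 7, when Itgam and Itgax reach 8.35 to 25.5%.

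Within the counts of the 7 alpha chains, every day 7 library held a smaller share of Itga8 and larger shares of Itgam and Itgax than any day 0 library. The share of Itga8 was 69.5% ± 2.17 (SD, n = 4) before injury and 23.1% ± 23.2 on day 7. It was 53.1% ± 19.8 and 51.8% ± 4.52 on days 14 and 21, and 71.5% ± 6.46 on day 28. Itgam and Itgax together took 18.2% ± 7.32 on day 7, then 4.36% ± 3.82, 4.2% ± 1.28 and 0.34% ± 0.589 on the 3 later days. The share of Itgav was 4.19% ± 0.975 on day 0 and 19.5% ± 8.09 on day 7, and that of Itga5 was 9.07% ± 2.03 and 23.3% ± 8.51, while the CPM of neither was higher on day 7. Itga1 and Itga7 together held 17.2% ± 3.75 on day 0 and 15.9% ± 6.11 on day 7. A share can change through the other chains of the sum, and shares were not tested.

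**Figure D5:**
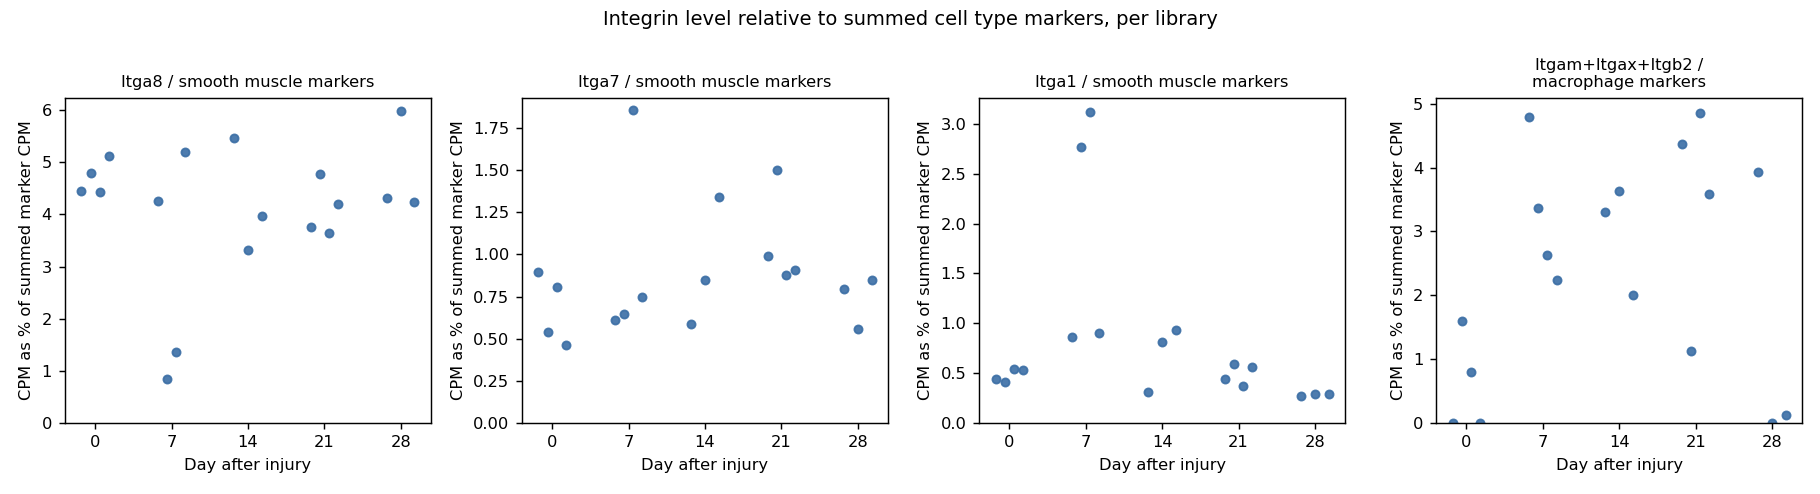
CPM of Itga8, Itga7 and Itga1 as a percentage of the summed CPM of 12 contractile smooth muscle markers, and of the 3 leukocyte chains as a percentage of the summed CPM of 16 macrophage markers, per library (points) by day. Itga8 held 4.44 to 5.12% on day 0 and 0.832% and 1.35% in day 7 replicates 2 and 3, whereas Itga1 was above its day 0 values in all day 7 libraries.

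Contractile smooth muscle markers moved with the muscle chains, and their part in these results was not tested. Of the 12 markers, 12 fell on day 7, and 7, 8 and 1 were lower on days 14, 21 and 28. Relative to the summed markers, Itga7 held 0.464 to 0.895% on day 0 and 0.613 to 1.86% on day 7, ranges that overlapped. Itga8 was 4.44 to 5.12% of the sum on day 0, and on day 7 it was 4.25%, 0.832%, 1.35% and 5.2% in replicates 1 to 4. Replicates 1, 2 and 3 thus held less Itga8 per marker than any day 0 library, and replicate 4 held more. On days 14, 21 and 28 Itga8 was 3.32 to 5.46%, 3.64 to 4.78% and 4.24 to 5.98% of the sum. Itga1 behaved differently, at 0.412 to 0.54% on day 0, 0.858 to 3.12% on day 7 and 0.273 to 0.287% on day 28, so its CPM had dropped by less than the marker sum on day 7 and by more on day 28. Of the 10 fibroblast markers, 7 fell and 1 rose on day 7.

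The genes with the courses most alike to each member were named by Pearson correlation of log2 CPM over the 18 libraries, which share days, so that the values describe the day pattern and carry no test. For Itga8 they were the contractile genes Lmod1 (r = 0.983), Myh11 (0.981) and Tagln (0.98). For Itga7 they were the pericyte proteoglycan gene Cspg4 (0.955), the integrin-linked adaptor Lims2 (0.947) and Jph2 (0.945), and for Itga1 Atp2a2 (0.885), the natriuretic peptide receptor Npr1 (0.873) and 1190005I06Rik (0.867). Itgb1 was most like the guanylate cyclase subunit Gucy1b1 (0.933), Clic4 (0.911) and Filip1l (0.899), and Itgb5 most like Bgn (0.933), Cercam (0.929) and Htra1 (0.926). For Itga5 the values were lower, with Lamp1 (0.843), Ndufs6 (0.832) and Tinagl1 (0.817), as they were for Itgav, with Mdm4 (0.845), Zfp362 (0.832) and Dusp11 (0.789). Itgam was most like Itgb2 (0.965), the complement receptor C5ar1 (0.954) and Tbxas1 (0.933). Itgb2 was most like Itgam, C5ar1 (0.964) and the interferon-induced Ifi47 (0.957), and Itgax was most like Ifi47 (0.955), Itgb2 (0.951) and the platelet-activating factor receptor Ptafr (0.941).

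Of the 11 alpha chain genes outside the 10 members, 8 could be tested. On day 7, 4 rose and 1 fell against day 0, beside 11.3% and 8.53% of all tested genes. Of the risers, Itgal, Itga2 and Itga11 had at most 1 count in any day 0 library and passed the filter only through later days. Their rises were thus favoured by the filter. Itgal, the lymphocyte and myeloid partner of Itgb2, had 1 count in all on day 0, and its rate was 64.4 times higher on day 7 (95% exact counting interval 11.0 to 2593.3; edgeR adjusted p = 0.00181). Itga2, a further collagen receptor chain, had a ratio of 56.5 (interval 9.61 to 2282.1; adjusted p = 0.00649). Itga11, a collagen receptor chain of mesenchymal cells, was without a count in the day 0 libraries, and its day 7 mean exceeded that floor at least 2.74-fold (adjusted p = 0.00404), its day 14 mean at least 8.79-fold (0.00141) and its day 21 mean at least 11.9-fold (0.000548). Itga6, a laminin receptor chain, rose by 2.09 ± 0.43 on the log2 scale on day 7 (0.00087), and Itga9 changed by -2.74 ± 0.48 (0.000201). On day 14, 3 rose (Itga11, Itga2 and Itgal) and Itga3 fell (-1.50 ± 0.39, adjusted p = 0.019), beside 4.8% and 1.42% of all genes. On day 21, Itga11 and Itgal rose and Itga3 fell (-1.12 ± 0.35, 0.0441), beside 5.92% and 2.93% of all genes. The median of the list was 1.68 on day 7, or 1.36 with Itga11 at its bound, beside 0.07 over all tested genes, and 0.36 on day 28, when edgeR called none. On that day 2 of the list were higher and 2 lower at an unadjusted p below 0.05, and DESeq2 called 2 lower and limma 1.

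Among 6 further beta chains, 4 could be tested. Itgb7, a leukocyte chain, rose on day 7 (log2 change 4.83 ± 0.98, edgeR adjusted p = 0.000829), day 14 (4.15 ± 1.01, 0.0123) and day 21 (4.03 ± 0.99, 0.011). It had at most 4 counts in any day 0 library, so the size of these changes is loosely set. Itgb4, the hemidesmosomal chain, rose on day 7 (1.92 ± 0.60, 0.0247). Itgb3, the chain of the platelet and vascular vitronectin receptors, fell on day 14 (-1.53 ± 0.41, 0.0236). On day 28 edgeR called none, with 1 higher and 1 lower at an unadjusted p below 0.05 and 1 called higher by DESeq2. The median log2 change was 0.88, 1.38, 1.06 and 0.04 on the 4 days. Itgad and Itgb2l had no count in any library, and Itgae, Itgb6 and Itga2b, with 3, 1 and 63 counts in all, were too low to test.

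Genes that activate integrins or tie them to the cytoskeleton changed in both directions on day 7. Of 33 tested among 36, 7 rose and 12 fell, where 11.3% of all tested genes rose and 8.53% fell. The median log2 change was 0.02 beside 0.07 over all genes. The largest increases were in the immune receptor adaptor Tyrobp (4.62 ± 0.47, edgeR adjusted p = 2.1e-07) and the Rap1 effector Apbb1ip (3.88 ± 0.57, 2.5e-05). The kinase Ptk2b (3.78 ± 0.68, 0.000233) and the ILK-binding parvin gene Parvb (3.68 ± 0.87, 0.0031) came next. Apbb1ip, Ptk2b and Parvb had at most 4, 6 and 4 counts in any day 0 library, so the size of their changes is loosely set. The largest decreases were in the PINCH adaptor Lims2 (-3.74 ± 0.48, 4e-06), the tensin Tns1 (-2.78 ± 0.35, 2.9e-06), the filamin-binding Fblim1 (-2.01 ± 0.34, 0.000147) and the zyxin gene Zyx (-1.79 ± 0.26, 1.9e-05). The kindlin genes moved oppositely: Fermt3 of blood cells rose (3.24 ± 0.57, 0.000198) and Fermt2 of mural cells fell (-1.65 ± 0.31, 0.000379). Both were singled out after their values were seen. On day 14, 4 rose and 5 fell, beside 4.8% and 1.42% of all genes. The increases were in Tyrobp (3.48), Ptk2b (3.30), Apbb1ip (2.95) and Csk (1.25), and the largest decreases in Lims2 (-1.69), Tns1 (-1.32), Ilk (-1.11) and Zyx (-1.02). On day 21, 5 rose, beside 5.92% of all genes, led by Tyrobp (3.40), Apbb1ip (3.38), Ptk2b (3.12) and Fermt3 (2.04). Fblim1 (-1.13) and Tns1 (-1.05) fell, beside 2.93% of all genes. On day 28 edgeR called none, with 3 higher and 1 lower at an unadjusted p below 0.05, and DESeq2 called 3 higher and limma none.

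Of 31 ligand and counter-receptor genes tested among 33, 11 rose and 6 fell on day 7, beside 11.3% and 8.53% of all tested genes. Their median was 0.57 beside 0.07 over all genes. Spp1, the gene of the RGD ligand osteopontin, had 1 count in each of 2 day 0 libraries, and its rate was 2283.5 times higher on day 7 (95% exact counting interval 632 to 18863.1), 1649.8 times on day 14, 1242.6 times on day 21 and 153 times on day 28 (interval 41.9 to 1275.4; edgeR adjusted p = 0.00472). The laminin chain gene Lamb1 rose by 4.31 ± 0.55 (3.8e-06), the tenascin gene Tnc by 4.11 ± 0.56 (7.9e-06) and Vcam1, a counter-receptor on activated endothelium and mural cells, by 2.87 ± 0.31 (4.4e-07). Icam1, the counter-receptor of the Itgb2 integrins, rose by 1.65 ± 0.37 on day 7 (0.00217) and was named after its value was seen. The largest decreases on day 7 were in Lamb2 (-2.34 ± 0.41, 0.000166), in Npnt, the nephronectin gene whose product binds the Itga8 receptor (-1.97 ± 0.46, 0.00267), and in Ltbp1 (-1.57) and Tgfb3 (-1.53). Days 14 and 21 had 9 and 11 increases, beside 4.8% and 5.92% of all genes. Those with the largest changes were Spp1, Tnc (3.92), Lamb1 (3.61) and Thbs1 (2.94) on day 14, and Spp1, Tnc (3.50), Lamb1 (3.39) and Col1a1 (2.84) on day 21. EdgeR called no decrease on either day, with 3 and 1 lower at an unadjusted p below 0.05, and DESeq2 and limma each called 1 lower on day 21. On day 28, 3 genes were still higher than on day 0, beside 0.97% of all genes. They were Spp1, Lamb1 (2.58 ± 0.59, 0.031) and Tnc (2.41 ± 0.56, 0.034). A further 2 were lower at an unadjusted p below 0.05 without passing by any tool.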

How the data were processed

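Count tables of 18 laser-dissected carotid libraries were used. According to the study's methods, the authors made 3′ libraries (nanoMACE-seq), removed PCR duplicates by UMI, quantified reads against the mm39 transcriptome with Salmon 1.9.0 and used DESeq2 1.36.0. The annotation release and the use of strand are not given in the sources used here. The deposited raw table holds Salmon's expected counts as whole numbers, and the deposited normalised table holds a signal derived from them, which differs from a single scale per library by a gene-specific factor in 6 of the 10 members. Genes were filtered by day (filterByExpr), scaled by TMM and tested with edgeR 4.0.16 quasi-likelihood in 1 fit that held 18 libraries (Benjamini-Hochberg adjusted p over 10312 genes, threshold 0.05). R 4.3.3, limma 3.58.1 and DESeq2 1.42.0 served 25 alternatives. The SE is the size of the log2 change divided by the square root of F. Depth was 440675 to 878310 counts per library, and intervals and floors (3 counts per library) cover counting error only.

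The members, gene lists and tests were chosen with earlier results of these data known. All 10 members were named, with up to 4 called genes per direction of each integrin list and comparison with day 0, and the 3 genes most correlated with each member (log2 CPM, prior count 2). Same-numbered replicates were not paired by residuals (median r = -0.01 over 33 pairs). Equal animal numbers pair 3 libraries of day 0 with 3 of day 21 (median r = 0.04), and a fit with these animals as a block is given where it changed a call. Genes and windows of 250 bases were taken from GENCODE vM39 on GRCm39. Of the steps used, only the edgeR fit was tested on simulated data.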

Additional observations from a re-analysis of the deposited data

Results flagged for a closer look

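The change of 9 member values between later days and day 7 passed the edgeR test of that difference, and these are the places where the effects of 2 time points against the shared day 0 libraries differed. Itga7 was higher than on day 7 by 1.79 on day 14 (adjusted p = 0.0166), by 2.24 on day 21 (0.00053) and by 2.57 on day 28 (0.000114) on the log2 scale. Itga8 was higher by 2.03 on day 21 (0.0332) and by 3.08 on day 28 (0.00169), and Itgb5 by 1.02 on day 21 (0.0326). The leukocyte chains were lower on day 28, with log2 differences of -3.34 for Itgam (0.0116), -4.50 for Itgax (0.0067) and -4.22 for Itgb2 (0.000449). The day 28 value of Itgax rests on 3 counts, all in replicate 1. In the groups of 4 libraries (30 gene and day groups), no library of a member had a gap to its neighbour above Dixon's 95% critical share of the group's range. The day 0 groups of Itgam and Itgax held 0 in every library, so they had no range and could not be flagged. Chance flags about 1 in 20 groups that have a range, and groups of 3 libraries were not examined this way.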

How the results depend on the processing

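Counts of calls depended most on single libraries and on the animal block. When each library was left out in turn, the members called ranged from 7 to 9 on day 7, 3 to 6 on day 14, 4 to 5 on day 21 and 0 to 2 on day 28 against day 0, and from 0 to 3, 1 to 3 and 5 to 6 on days 14, 21 and 28 against day 7. Over all genes the calls ranged from 1599 to 2175, 233 to 746, 610 to 1033 and 62 to 483 against day 0, and from 27 to 320, 490 to 825 and 1022 to 1734 against day 7. The mean log2 ratio of Itgb2 to Itgb1 ranged from -10.05 to -9.14, -2.73 to -2.37, -4.70 to -3.79, -4.39 to -3.93 and -8.99 to -7.08 on the 5 days, and that of Itga5 to Itga7 from -0.35 to 0.10, 1.52 to 2.54, -0.41 to 0.27, -0.89 to -0.19 and -1.23 to -0.60. At 440675 to 878310 counts per library, the leukocyte chains could not be resolved below about 3 counts.

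With the animal block, members called fell to 3 on day 14 and 0 on day 28 against day 0 and to 1 on day 21 against day 7, and genes called to 1047, 199 and 3 on days 7, 14 and 28 against day 0 and 223 on day 21 against day 7. In that fit the day 0 level leans on day 0 replicate 1, since the other 3 of the 4 day 0 libraries carry an animal term shared with a day 21 library. The day 21 level leans on day 21 replicate 2 in the same way. Calls lost with the animal block are to be read with this limit. The replicate block, for numbers that share no more than a number, gave 2 members on day 14 against day 7 and 72 genes on day 28 against day 0. It called Itga5 on day 7 against day 0 (0.0484) and Itga8 on day 14 against day 7 (0.0234), and changed no other member call. DESeq2 gave 2 members and 366 genes on day 28 against day 0 and 292 genes on day 14 against day 7. With no filter on low counts these were 2 and 363 on day 28, and 2 members and 392 genes on day 14 against day 7. The fit of only the days compared gave 71 genes on day 28 against day 0, 0 members and 74 genes on day 14 against day 7, and 977 genes on day 28 against day 7. Limma on the deposited normalised counts gave 0 members on day 28 against day 0 and 2 on day 14 against day 7. The cause of these shifts was not tested.

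Directions turned only for differences that did not pass the test. Against day 7, Itga5 on day 21 was 0.04, and -0.05, -0.63 and -0.18 with the replicate block, the animal block and limma, and from -0.25 to 0.31 leaving out a library. Against day 0, the animal block gave Itgav differences of 0.06, 0.17 and 0.21 on days 7, 14 and 28, and the day 28 difference was 0.01 with DESeq2, its size factors or the replicate block. Leaving out a library, Itgav ranged from -0.35 to -0.09, -0.20 to 0.05 and -0.26 to 0.22 on days 7, 14 and 28 against day 0, and from -0.04 to 0.30 and -0.07 to 0.39 on days 14 and 28 against day 7. In the same way Itgax on day 21 against day 7 ranged from -0.59 to 0.13 (-0.21 with all libraries), Itgb2 on day 28 against day 0 from -0.26 to 3.08, and Itgb5 from -0.35 to 0.03 on day 14 and -0.02 to 0.16 on day 21 against day 0, where limma gave -0.10. Without day 28 replicate 1, Itgam and Itgax had no count on day 28.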
